A study of Arabidopsis thaliana with 48 samples.

Results

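Wild type Arabidopsis thaliana seedlings labelled as in light were compared with wild type seedlings labelled as in darkness at 5 days after germination. The comparison holds 6 of the 48 RNA-seq samples of the series, 3 labelled light and 3 labelled dark, and its samples were taken by these labels and by no measured value. All 6 were whole seedlings with the genotype label wild type and no treatment. The same light and dark pair at 4 d in wild type and at 5 d in seedlings labelled snrk1a1/a2 (6 samples each) served to show where the wild type 5 d difference itself differed. Kinases of the SnRK1 type, whose catalytic subunits are encoded by KIN10 and KIN11, restrain growth and promote catabolism when carbon runs short. The labels give neither the ecotype, the light intensity, when the light began, the hour of harvest, nor whether the dark seedlings had ever been lit. They do not say whether replicates came from separate cultures, so the tests measure a spread between libraries that may be technical. That spread was estimated over all 42 libraries of the series in 14 groups, not over these 6 alone. The groups include 4 d seedlings of both genotypes given glucose, in light and in dark.

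A seedling that grows in darkness lives on its seed reserves: the hypocotyl elongates, the cotyledons stay closed and the plastids hold protochlorophyllide in place of chlorophyll. In light, phytochromes and cryptochromes inactivate the COP1/SPA ubiquitin ligase and the phytochrome-interacting factors (PIFs), the transcription factor HY5 accumulates, and the plastids develop into photosynthetic chloroplasts. The seedling then pays for its growth with photosynthesis, while elongation slows and the cotyledons open.

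The 6 libraries held 8444907 to 9487599 counts on one transcript model per gene. Values below are counts per 1000000 counts of the library, scaled by edgeR's TMM factors (CPM). They are given for libraries 1, 2 and 3 in that order. TMM factors were 0.755 to 0.874 in light and 0.890 to 0.961 in dark, and the 10 most abundant genes held 6.93% to 8.01% of the light counts and 4.41% to 6.60% of the dark counts. Each log2 fold change is light over dark and is followed by its standard error after the ± sign. Chloroplast-encoded genes held 2.3% to 4.18% of the counts and mitochondrion-encoded genes 0.164% to 0.844%, with dark library 1 highest in both. The first principal component (63.6% of the variance) separated the light from the dark libraries, and on the second (15.5%) light library 2 and dark library 1 stood apart from the other libraries of their groups, on the same side.

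Of 22586 genes tested, 8002 (35.4%) differed between light and dark at an adjusted p of 0.05 (edgeR's quasi-likelihood test with Benjamini-Hochberg adjustment). In light, 3727 genes (16.5%) were higher and 4275 (18.9%) were lower. With library totals in place of TMM factors, 9131 genes were called and the share called higher fell from 46.6% to 28.7% of the calls, so the balance of rises and falls depends on the scaling. At least a 2-fold difference was found for 4018 called genes (17.8% of all tested), 1741 higher (7.71%) and 2277 lower (10.1%). Log2 fold changes between 3 and 5 in size were found for 192 higher and 152 lower calls, and beyond 5 for 43 and 35. The CPM ranges of the 3 light and 3 dark libraries did not overlap for 48.3% of the genes. Of the 474 tested nuclear genes in the gene groups described below, 265 were called, 165 of them higher.

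Of the 12 largest rises, 11 were of genes with under 5 CPM in every dark library. NDA1 (AT1G07180, chromosome 1, 2204320 to 2206934, plus strand of TAIR10) encodes a mitochondrial alternative NAD(P)H dehydrogenase that bypasses the proton-pumping complex. Its level was 125, 101 and 121 CPM in light and 0.711, 0.553 and 0.245 CPM in dark (log2 fold change 7.81 ± 0.60, adjusted p = 5.11e-14). Every dark library was under 1 CPM and every light library above 100 CPM. BAM3 (AT4G17090, chromosome 4, 9604962 to 9607334, minus strand, 4 exons) encodes the chloroplast beta-amylase that releases maltose from starch at night. It was measured at 194, 211 and 256 CPM in light and 3.91, 3.76 and 2.57 CPM in dark (log2 fold change 6.0 ± 0.71, adjusted p = 2.48e-07). CSLB03, a cellulose synthase-like gene, stood at 187, 125 and 189 CPM in light and 3.67, 0.885 and 0.858 CPM in dark (log2 fold change 6.53 ± 0.50, adjusted p = 1.07e-11). Dark library 1 was the highest of the dark libraries for CSLB03 and still lay far under every light library. AT2G15020, annotated as an uncharacterized protein, had 1088 counts over the 3 light libraries and 1 over the dark ones, a ratio of 1310 with an exact 95% interval of 234 to 51700 that covers counting error only. AT1G29720, annotated as a leucine-rich repeat transmembrane kinase, had 1037 counts against 2, a ratio of 623 (172 to 5150).

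FBA5, a fructose-bisphosphate aldolase, was 39.3 times as abundant in light as in dark, and the thionin gene THI2.2, of a family of small cysteine-rich defence peptides, 30.5 times. The cupin gene PAP85, of the vicilin-like storage protein family, was higher by 5.32 ± 0.84 on the log2 scale (SE), and the undecaprenyl pyrophosphate synthetase family gene cPT4 by 4.85 ± 0.64. The uncharacterized AT5G44575 and the TIR-NBS-LRR resistance-type gene AT5G46490 completed the 12 largest rises with log2 fold changes of 5.57 and 4.78. Among genes with a mean of at least 100 CPM, AT1G42430, annotated as an inactive purple acid phosphatase-like protein, had 514, 345 and 408 CPM in light and 17.2, 15.4 and 13.0 CPM in dark (log2 fold change 4.80 ± 0.17, adjusted p = 1.42e-18). Its standard error was the smallest among the largest rises. The other abundant genes of this set were SIGE, a sigma factor that directs the plastid RNA polymerase to its promoters (4.26 ± 0.48 on the log2 scale), SQE3, a squalene epoxidase of sterol synthesis (4.23 ± 0.24), the salt tolerance homologue STH with its B-box zinc fingers (4.13 ± 0.39) and the receptor-like kinase-related AT3G22060 (4.63 ± 0.31).

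The largest falls included regulators and wall enzymes of elongation growth. PIL1 (AT2G46970, chromosome 2, 19295490 to 19297826, minus strand, 6 exons), a basic helix-loop-helix protein related to the PIFs, was at 0.687, 0.677 and 0.149 CPM in light and 31.5, 50.2 and 42.3 CPM in dark (log2 fold change -6.30 ± 1.15, adjusted p = 5.6e-07). XTH15 (AT4G14130, chromosome 4, 8137051 to 8138281, minus strand, 3 exons) encodes a xyloglucan endotransglucosylase/hydrolase that cuts and rejoins wall polymers. It was at 129, 120.3 and 149 CPM in light and 5091, 4889 and 5454 CPM in dark (log2 fold change -5.27 ± 0.62, adjusted p = 1.35e-06). The highest light library lay far under the lowest dark one. Per kilobase of transcript XTH15 was among the 10 most abundant genes in the dark mean. IAA29, an auxin-induced repressor of auxin signalling, was at 1.51, 2.57 and 0.896 CPM in light and 25.6, 53.5 and 47.8 CPM in dark (log2 fold change -4.65 ± 0.78, adjusted p = 8.32e-06), with dark library 1 lowest among the dark ones and no overlap.

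The other falls among the 12 largest were of less well known genes. AT5G44440, of the FAD-binding berberine family, was at 25, 47.6 and 35.2 CPM in light and 1175, 1594 and 1747 CPM in dark (log2 fold change -5.39 ± 0.55, adjusted p = 9.29e-08). AT1G73120, an F-box/RNI protein gene, was at 10, 17.5 and 13.0 CPM in light and 542, 647 and 751 CPM in dark (log2 fold change -5.58 ± 0.34, adjusted p = 1.41e-12). For both genes every light library lay far below every dark one. COR413IM1, a cold-regulated protein of the chloroplast inner envelope, was lower by -5.21 ± 0.48 on the log2 scale, and FLP1, annotated as a flowering-promoting factor-like protein, by -5.19 ± 0.46. AT5G22500, annotated as fatty acid reductase 1, an enzyme that makes primary fatty alcohols, changed by -4.72 ± 0.33, the ARM repeat gene AT3G18530 by -5.28 ± 0.45 and RTFL21, of the ROTUNDIFOLIA-like small peptides, by -6.20 ± 0.94. AT5G02580, annotated as an argininosuccinate lyase, and the DUF241 gene AT4G35720 changed by -5.17 ± 0.50 and -4.51 ± 0.66. Among genes with a mean of at least 100 CPM, the B-box gene BBX17 (-4.50 ± 0.46) and the gibberellin-regulated GASA4 (-4.04 ± 0.34) were further large falls.

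**Figure D1:**
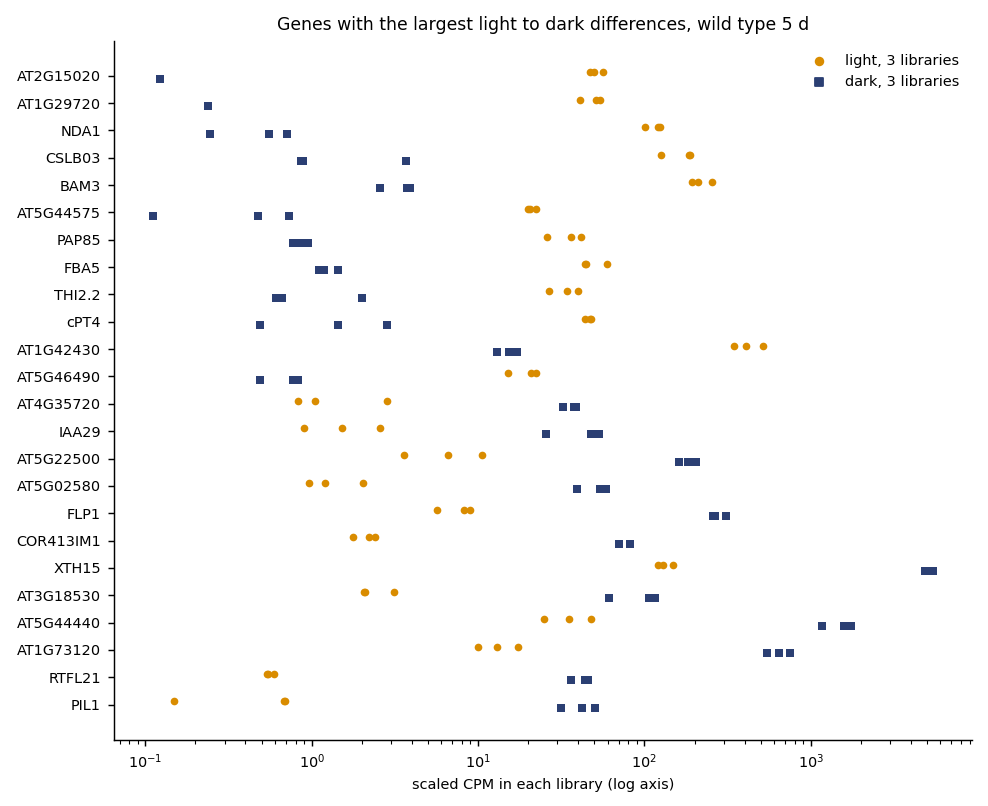
Scaled CPM of the 12 largest rises (upper rows) and 12 largest falls (lower rows) in each of the 3 light (orange circles) and 3 dark (blue squares) wild type 5 d libraries, on a log axis. The 2 dark libraries without a count of AT2G15020 and the 2 without one of AT1G29720 cannot be drawn on this axis; no gene shown has overlapping light and dark ranges.

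Genes of the photosynthetic apparatus were higher in light as a group. Of 31 nuclear genes for photosystem subunits and electron carriers, 29 were called higher, none lower, and 2 (PSAE2 and PSBQ2) were not called; the median log2 fold change was 1.62 against -0.08 over all tested genes. PSBR, a subunit of photosystem II, was at 4600.1, 4250.3 and 4788 CPM in light and 1401, 793 and 1154 CPM in dark (log2 fold change 2.03 ± 0.31, adjusted p = 7.76e-06). PSAN, a lumenal subunit of photosystem I, was at 1617, 1387 and 1767 CPM in light and 394, 249 and 309.5 CPM in dark (log2 fold change 2.33 ± 0.34, adjusted p = 3.58e-06). For both genes the lowest light library was above the highest dark one, and dark library 2 was lowest of all. The extrinsic oxygen-evolving protein gene PSBO2 (2.47 ± 0.43 on the log2 scale) changed by more than its paralog PSBO1 (1.29 ± 0.33), a contrast between genes that was not tested. Electron carrier genes were higher too, with PETE2 for plastocyanin at 1.94 ± 0.32, FD2 for the main leaf ferredoxin at 1.71 ± 0.26 and FNR1 for ferredoxin-NADP reductase at 1.79 ± 0.27.

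The light-harvesting antenna genes, whose proteins bind chlorophyll around both photosystems, differed more among themselves: 13 of 21 were called higher, none lower and 8 were not called, with a median of 1.24. LHCB2.1, a trimeric antenna protein of photosystem II, was at 3337, 2453 and 3802 CPM in light and 361, 136 and 241 CPM in dark (log2 fold change 3.70 ± 0.46, adjusted p = 9.28e-07). LHCB1.3 was the most abundant transcript per kilobase in both conditions, and its level was 23998, 20732 and 30827 CPM in light and 16147, 4875 and 10912 CPM in dark (log2 fold change 1.24 ± 0.47, adjusted p = 0.0391). Dark library 1 was the highest and dark library 2 by far the lowest of the dark, and every light library lay above all of them. LHCB1.5 was at 5736, 4964 and 7349.7 CPM in light and 5729, 3549.5 and 5489 CPM in dark and was not called (log2 fold change 0.29 ± 0.43, adjusted p = 0.632); its ranges overlapped. Without dark library 2, 8 antenna genes were called in place of 13, and the LHCB1.3 call was lost (adjusted p = 0.189), as it was without dark library 3, light library 1 or light library 3. The LHCB1 and LHCB2 copies are near identical in sequence, so reads may have been split among them and each copy's own value is uncertain. The antenna genes summed to 62692 to 86720.1 CPM in light and 16767 to 41160 CPM in dark, with dark library 1 highest of the dark. The minor members LHCA5 and LHCB7, of low abundance, had tight values and log2 fold changes of 2.72 ± 0.26 and 2.86 ± 0.28.

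Of 19 Calvin cycle genes, 17 were called higher, none lower and 2 (RBCS2B and PGK2) not, with a median of 1.94; PGK2 was called lower without dark library 2 or light library 3 (-0.50 in both). RCA, the activase that frees Rubisco of inhibitory sugar phosphates, was at 6485, 5476 and 6603 CPM in light and 1311, 554 and 739.8 CPM in dark (log2 fold change 2.83 ± 0.32, adjusted p = 5.26e-08). FBA1, a plastid aldolase, was at 1019, 879.8 and 1087 CPM in light and 139, 50.7 and 76.0 CPM in dark (log2 fold change 3.49 ± 0.33, adjusted p = 2.85e-09). In both, the 3 light libraries lay close together, and the dark ones spread more widely with dark library 1 highest. The Rubisco small subunit genes differed from each other, with log2 fold changes of 3.71 ± 0.48 for RBCS1B, 2.12 ± 0.29 for RBCS1A, 2.12 ± 0.33 for RBCS3B and 0.25 ± 0.40 for RBCS2B, though these copies too share sequence. The plastid glyceraldehyde phosphate dehydrogenase genes GAPA1, GAPA2 and GAPB rose by 1.93, 2.90 and 2.84, and SBPASE, for the sedoheptulose bisphosphatase of the regeneration phase, by 1.94. HCEF1, for the plastid fructose bisphosphatase, was at 258, 206 and 275 CPM in light and 97.4, 45.3 and 61.9 CPM in dark (log2 fold change 1.85 ± 0.36, adjusted p = 0.00022). By contrast, only 1 of 105 chloroplast-encoded genes tested was called higher (ATCG01310, an rpl2 copy with under 2 CPM in each library) and none lower, and their median was -0.39.

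In chlorophyll synthesis, 17 of 26 genes were called higher, 2 lower and 7 were not called. HEMA1, for the glutamyl-tRNA reductase that starts the pathway, was at 1003, 852 and 1028 CPM in light and 194, 154 and 180.4 CPM in dark (log2 fold change 2.45 ± 0.24, adjusted p = 2.74e-09). CHLH, a subunit of the magnesium chelatase, was at 3041, 1992 and 3049 CPM in light and 713, 355 and 411 CPM in dark (log2 fold change 2.45 ± 0.31, adjusted p = 3.21e-07). GUN4, which activates that chelatase, rose by 2.68 ± 0.27 and CAO, which makes chlorophyll b, by 2.60 ± 0.27. The 2 genes that fell were the protochlorophyllide reductases that accumulate in dark-grown plastids. PORA was at 39.2, 86.2 and 59.4 CPM in light and 712, 316 and 449.8 CPM in dark (log2 fold change -3.0 ± 0.56, adjusted p = 0.000195). PORB was at 106, 139 and 131 CPM in light and 909, 539 and 780.4 CPM in dark (log2 fold change -2.57 ± 0.46, adjusted p = 0.000102), and for both reductases dark library 1 was highest and no light library reached a dark one. The third reductase gene, PORC, was at 32.4, 35.6 and 42.7 CPM in light and 25, 16.4 and 19.5 CPM in dark and missed the threshold (log2 fold change 0.86 ± 0.39, adjusted p = 0.0809).

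**Figure D2:**
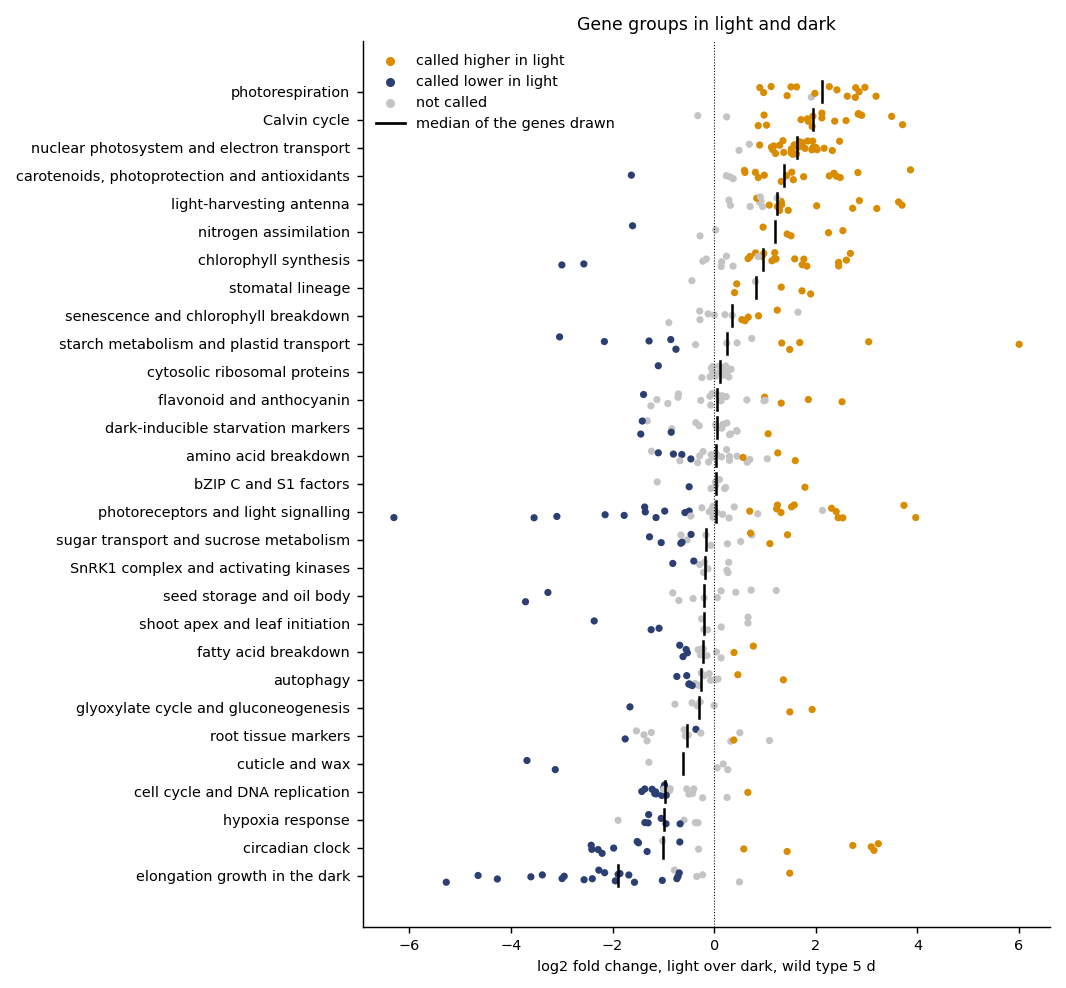
Log2 fold change of light over dark for 475 members of 29 gene groups in wild type at 5 d; each point is a gene, coloured by its call at an adjusted p of 0.05, and each bar is the median of the genes drawn. Genes with too few counts to give a fold (6) are not drawn; the medians of photorespiration, Calvin cycle and photosystem genes lie to the right of 0 and that of elongation genes to the left.

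Photorespiration had the highest median of the groups examined, 2.12: 15 of 16 genes were called higher and none lower. This pathway recovers carbon from the phosphoglycolate that Rubisco makes when it reacts with oxygen. GGT1, the peroxisomal glutamate:glyoxylate aminotransferase, was at 5404, 4228 and 5428 CPM in light and 562, 527 and 567 CPM in dark (log2 fold change 3.19 ± 0.25, adjusted p = 5.54e-11). GOX1, the glycolate oxidase, was at 1743, 1575 and 1874 CPM in light and 323, 232 and 289.5 CPM in dark (log2 fold change 2.62 ± 0.29, adjusted p = 2.56e-08). Every light value of these genes was more than 4 times every dark value of the same gene. The glycine decarboxylase P-protein genes GLDP1 and GLDP2 rose by 2.97 and 2.78, the serine hydroxymethyltransferase gene SHM1 by 2.85, the glycerate kinase gene GLYK by 2.42 and CAT2, for the peroxisomal catalase, by 1.62. The gene not called, PGLP1, had 10 counts in light and 3 in dark in all; a near-identical neighbouring copy makes its count uncertain, and it was called without dark library 1 (2.82) or light library 3 (2.31).

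Nitrogen assimilation, which consumes the same reducing power, showed 5 of 8 genes higher, 1 lower and 2 not called. NIA2, the major nitrate reductase gene, was at 6293, 4639 and 6615 CPM in light and 1032, 949.7 and 1049.8 CPM in dark (log2 fold change 2.53 ± 0.25, adjusted p = 3.25e-09). The plastid glutamine synthetase GS2 and the ferredoxin-dependent glutamate synthase GLU1, which also refix photorespiratory ammonium, rose by 1.51 ± 0.26 and 1.44 ± 0.30. The asparagine synthetase genes parted: ASN2 was at 164, 151 and 167 CPM in light and 48.5, 21.5 and 31.6 CPM in dark (log2 fold change 2.25 ± 0.27, adjusted p = 1.47e-07), whereas ASN1, the dark-inducible one, was at 1873, 1237 and 1799.8 CPM in light and 1254, 1844 and 1715 CPM in dark (log2 fold change 0.03 ± 0.46, adjusted p = 0.968) with overlapping ranges. NRT1.1, a nitrate transporter and sensor, was the gene that fell (-1.61 ± 0.29).

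Carotenoid, photoprotection and antioxidant genes were mostly higher, 16 of 20, with 1 lower and 3 not called. PSY, the phytoene synthase that commits carbon to carotenoids, was at 421, 396 and 456 CPM in light and 97.5, 74.3 and 76.7 CPM in dark (log2 fold change 2.36 ± 0.23, adjusted p = 1.7e-09). ELIP2, an early light-induced protein that binds free pigment, was at 319.9, 273 and 521 CPM in light and 38.9, 18.5 and 19.2 CPM in dark (log2 fold change 3.86 ± 0.52, adjusted p = 2.96e-06), and the light values ran from 273 to 521 CPM. Its relative ELIP1 was at 58.4, 68.3 and 103 CPM in light and 98.1, 46.6 and 39.8 CPM in dark, with overlapping ranges and no call (log2 fold change 0.31 ± 0.56, adjusted p = 0.698). ZEP, the zeaxanthin epoxidase of the xanthophyll cycle, rose by 2.48 ± 0.23, and VTC2, of ascorbate synthesis, by 1.42 ± 0.25. FSD1, the iron superoxide dismutase, fell by 1.63 ± 0.29 on the log2 scale while CSD2, the plastid copper/zinc enzyme, rose by 1.56 ± 0.24.

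Among 36 photoreceptor and light signalling genes, 12 were called higher, 11 lower and 13 were not called. PHYA, the phytochrome of dark-grown seedlings that is degraded in light, was at 356, 278 and 322 CPM in light and 1242, 1622 and 1375 CPM in dark (log2 fold change -2.15 ± 0.21, adjusted p = 1.49e-09). The fitted dark level was 4.43-fold the light level, and the ranges did not overlap. FHY1 and FHL, which carry phytochrome A into the nucleus, fell as well, by 1.36 ± 0.26 and 3.55 ± 0.39. PHYB, the main phytochrome of green plants, changed by -0.58 ± 0.13, PHYC by -0.49 ± 0.14, and PHYD and PHYE were not called; without dark library 2 PHYC was not called (-0.31) and PHYE was (0.54). The blue light receptors moved in both directions: PHOT1, which drives phototropism in dim light, fell by 1.77 ± 0.32, while its bright-light relative PHOT2 rose by 1.24 ± 0.22 and the cryptochrome gene CRY1 by 0.70 ± 0.16.

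HYH, the homologue of HY5, was at 192, 229 and 171 CPM in light and 18.2, 12.8 and 13.4 CPM in dark (log2 fold change 3.74 ± 0.33, adjusted p = 6.39e-10). HY5 itself was at 80.2, 92.8 and 80.3 CPM in light and 40.6, 45.6 and 53.7 CPM in dark; its ranges did not overlap, but the difference missed the threshold (log2 fold change 0.86 ± 0.41, adjusted p = 0.102); when only the 6 compared libraries were fitted, it passed (adjusted p = 0.0002). Genes that restrain light responses were higher in light: COP1 by 1.23 ± 0.14, SPA1 by 1.52 ± 0.27, SPA3 by 2.53 ± 0.27 and SPA4 by 2.31 ± 0.24, whereas SPA2 was not called (0.29 ± 0.13; called at 0.39 without light library 2 and at 0.35 with DESeq2's test or size factors). RUP2, which returns the UV-B receptor UVR8 to its inactive dimer, was at 108, 77.6 and 116 CPM in light and 9.12, 4.2 and 6.0 CPM in dark (log2 fold change 3.97 ± 0.44, adjusted p = 4.04e-08), and UVR8 was not called (-0.04 ± 0.15). The PIF genes did not move together. PIF4, which promotes hypocotyl elongation, was at 6.05, 5.42 and 6.42 CPM in light and 38.9, 61.4 and 52.8 CPM in dark (log2 fold change -3.10 ± 0.36, adjusted p = 5e-08). PIF5 was at 232, 191 and 237 CPM in light and 66.2, 81.6 and 73.5 CPM in dark and PIF7 at 7.56, 7.45 and 7.91 CPM in light and 1.42, 1.66 and 1.23 CPM in dark, both higher in light (1.58 ± 0.32 and 2.40 ± 0.48), while PIF1 and PIF3 were not called (0.17 ± 0.23 and 0.01 ± 0.19). Of the B-box genes, BBX24 rose by 1.31 ± 0.33, and BBX20 and BBX21, which promote light responses, fell by 0.97 ± 0.24 and 1.15 ± 0.23.

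Of 25 genes tied to elongation growth in darkness, 20 were called lower in light, 1 higher and 4 were not called; the median was -1.89. ATHB2, a homeodomain protein of shade and dark growth, was at 6.46, 8.54 and 8.36 CPM in light and 59.5, 99.1 and 85.3 CPM in dark (log2 fold change -3.38 ± 0.50, adjusted p = 4.64e-06). Auxin genes followed, with the biosynthetic YUC8 changed by -2.27 ± 0.35 and the response gene IAA19 by -2.99 ± 0.30. HLS1, which maintains the apical hook, was at 4.67, 8.40 and 5.97 CPM in light and 27.7, 22.3 and 23.5 CPM in dark (log2 fold change -1.95 ± 0.34, adjusted p = 3.81e-05). PRE1 and PRE5, small helix-loop-helix proteins that promote cell elongation, were under 1 CPM in each light library and at 5.21, 9.95 and 9.56 and 2.25, 3.65 and 2.94 CPM in the dark libraries. Wall-loosening genes other than XTH15 were lower too: XTH17 by -2.95 ± 0.51, XTH33 by -2.40 ± 0.42 and the expansin gene EXPA8 by -1.89 ± 0.24. The exception was another expansin gene, EXPA1, at 97.5, 93.3 and 70.2 CPM in light and 34.2, 31.0 and 27.9 CPM in dark (log2 fold change 1.49 ± 0.26, adjusted p = 4.27e-05). The brassinosteroid synthesis genes DWF4 and CPD changed by -0.69 ± 0.21 and -0.71 ± 0.17; DWF4 was not called without dark library 2 (-0.51) or light library 3 (-0.61).

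The circadian clock genes moved in both directions. Of 17, 6 were called higher in light, 9 lower and 2 (PRR9 and PRR5) were not called. The clock is a loop in which the MYB factors CCA1 and LHY, most abundant around dawn, repress evening genes through the evening element, and the evening genes in turn act on CCA1 and LHY. Because the labels give no hour of harvest, a difference in phase and a difference in level cannot be told apart. Promoters of 5 genes show the letters at issue: CCA1 and LHY for the morning side, LUX and GRP7 for the evening side, and HCEF1 for a photosynthetic enzyme. Each is the 250 bases before the RefSeq gene start in the TAIR10.1 assembly, written 5′ to 3′ on the strand of the gene. They lie at chr2:19245341-19245590 (plus strand), chr1:37872-38121 (minus), chr3:17182792-17183041 (plus), chr2:9266558-9266807 (minus) and chr3:20016587-20016836 (plus). Capitals mark the G-box CACGTG, which PIFs and HY5 bind, the evening element core AAATATCT, the I-box core GATAAG of photosynthesis promoters and the site II core TGGGCC, each on either strand.
CCA1: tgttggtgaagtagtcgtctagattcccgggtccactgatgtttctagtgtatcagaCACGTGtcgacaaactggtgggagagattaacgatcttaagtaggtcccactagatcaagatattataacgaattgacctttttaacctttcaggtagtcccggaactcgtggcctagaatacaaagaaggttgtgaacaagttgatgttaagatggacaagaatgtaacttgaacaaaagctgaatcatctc
LHY: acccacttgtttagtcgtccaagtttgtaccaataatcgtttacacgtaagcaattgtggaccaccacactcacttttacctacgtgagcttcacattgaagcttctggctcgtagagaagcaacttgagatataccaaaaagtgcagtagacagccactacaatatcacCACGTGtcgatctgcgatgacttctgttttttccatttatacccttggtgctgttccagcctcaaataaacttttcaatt
LUX: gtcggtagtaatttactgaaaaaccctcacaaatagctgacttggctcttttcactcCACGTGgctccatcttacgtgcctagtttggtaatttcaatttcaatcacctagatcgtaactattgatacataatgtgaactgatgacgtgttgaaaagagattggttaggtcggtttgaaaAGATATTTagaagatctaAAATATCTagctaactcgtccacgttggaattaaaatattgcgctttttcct
GRP7: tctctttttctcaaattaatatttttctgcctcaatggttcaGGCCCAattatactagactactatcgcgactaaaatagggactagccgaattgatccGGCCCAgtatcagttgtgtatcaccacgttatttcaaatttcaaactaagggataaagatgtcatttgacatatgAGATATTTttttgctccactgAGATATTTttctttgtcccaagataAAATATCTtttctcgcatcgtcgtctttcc
HCEF1: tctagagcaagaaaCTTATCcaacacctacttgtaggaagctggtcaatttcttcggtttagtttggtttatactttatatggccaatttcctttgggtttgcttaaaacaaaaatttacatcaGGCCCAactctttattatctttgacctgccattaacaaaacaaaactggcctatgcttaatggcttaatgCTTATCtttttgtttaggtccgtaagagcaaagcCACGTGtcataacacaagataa

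CCA1 (AT2G46830, chromosome 2, 19245672 to 19248909, plus strand, 8 exons in TAIR10) was at 752, 660.0 and 758 CPM in light and 71.4, 84.2 and 75.6 CPM in dark (log2 fold change 3.23 ± 0.28, adjusted p = 3.33e-10). Its promoter window holds a G-box whose first letter is 193 bases before the start and no evening element. LHY was at 1212, 1045 and 1262 CPM in light and 135, 138 and 125 CPM in dark (log2 fold change 3.14 ± 0.29, adjusted p = 1.49e-09), with a G-box 80 bases before the start. RVE8 and RVE1, related MYB factors, were at 270.3, 242 and 257 CPM in light and 34.2, 40.0 and 41.8 CPM in dark and at 589, 483 and 548 CPM in light and 46.6, 77.7 and 65.8 CPM in dark (2.73 ± 0.26 and 3.09 ± 0.37 on the log2 scale). In these 4 genes each light library held at least 5 times the level of each dark library. The remaining rises were ZTL (1.44 ± 0.14) and LKP2 (0.58 ± 0.14), F-box proteins that sense blue light.

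LUX, the DNA-binding subunit of the evening complex, was at 14, 17.5 and 18.2 CPM in light and 89.2, 93.5 and 81.4 CPM in dark (log2 fold change -2.41 ± 0.31, adjusted p = 3.61e-07). Its window holds evening elements 70 and 52 bases before the start as well as a G-box at 193. The other members of that complex, ELF3 and ELF4, changed by -0.68 ± 0.16 and -1.49 ± 0.56, and the ELF4 call was lost without dark library 1 or 2 or light library 1 or 3 (-1.26 to -1.54). GRP7, an RNA-binding protein whose transcript oscillates under the clock, was at 226, 282 and 223 CPM in light and 879, 948 and 1057 CPM in dark (log2 fold change -1.98 ± 0.32, adjusted p = 1.23e-05), with evening elements 76, 55 and 30 bases before the start and site II cores at 208 and 151. TOC1, the evening repressor of CCA1, was at 72.7, 61.2 and 72.7 CPM in light and 146, 203 and 167 CPM in dark (log2 fold change -1.32 ± 0.19, adjusted p = 1.7e-06). GI, which stabilises ZTL, was at 5.09, 19.8 and 7.61 CPM in light and 63.6, 49.2 and 37.7 CPM in dark (log2 fold change -2.21 ± 0.58, adjusted p = 0.00393). Light library 2 was more than 2 times each of the other light libraries and still below every dark library. FKF1, a blue light receptor of the flowering pathway, showed the same high light library 2, at 0.550, 3.25 and 0.597 CPM in light and 9.60, 5.97 and 6.25 CPM in dark (log2 fold change -2.29 ± 0.60, adjusted p = 0.00262). The pseudo-response regulator genes PRR7 and PRR3 changed by -1.52 ± 0.22 and -2.42 ± 0.54.

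**Figure D3:**
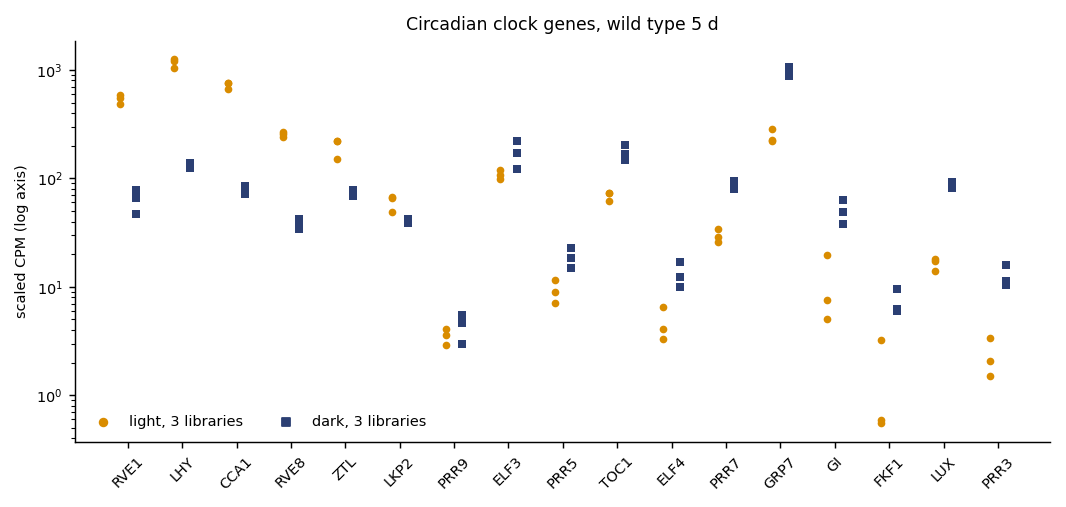
Scaled CPM of the 17 clock genes in each of the 3 light (orange circles) and 3 dark (blue squares) wild type 5 d libraries, on a log axis. The 6 genes at the left are called higher in light; from ELF3 rightwards the genes are called lower, except PRR5.

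Across all genes with a promoter read (22346), the window from 250 bases before to 50 bases after the start held the evening element core in 5.70% of promoters. The share was 8.27% among genes called lower in light (351 of 4243), 4.81% among those called higher (179 of 3719) and 5.17% among those not called. The ratio of the lower genes' share to that of all genes was 1.45, or 1.31 to 1.6 over the Wilson 95% interval of the lower genes' share. The I-box core was in 17.9% of the promoters of genes called higher, 13.5% of those called lower and 14.8% of all. The site II core was in 12.6% of the promoters of genes called lower, against 20.1% for those called higher and 17.5% for all, and the telo-box AAACCCTA in 2.92%, 4.65% and 5.60%. G-box shares were alike, 9.33% in genes called higher and 9.36% in genes called lower (8.59% of all), as were those of the ACTCAT element, 14.4% and 14.6%. A match of letters is a description only and does not show that a factor binds there.

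Within groups, 7 of the 17 clock promoters held the evening element and 8 the G-box, and 16 of the 31 photosystem promoters held the I-box and 11 the G-box. The HCEF1 promoter printed above holds I-boxes at 236 and 56 bases, a G-box at 22 and a site II core at 126. Of the 25 elongation gene promoters, 1 held a G-box and none the evening element core.

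**Figure D4:**
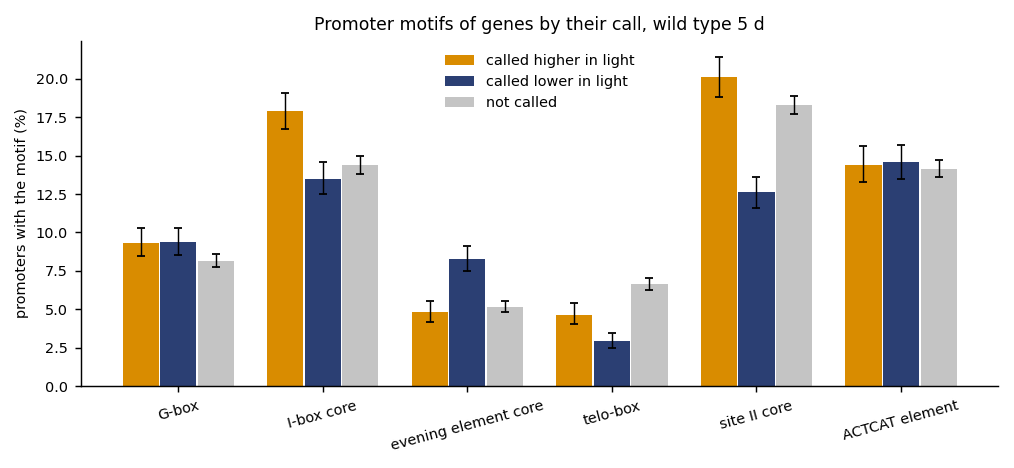
Percentage of promoters that hold each motif on either strand within 300 bases around the gene start, for genes called higher in light, called lower in light and not called in wild type at 5 d; bars start at 0 and whiskers are Wilson 95% intervals. The evening element core is more frequent in genes called lower (8.27%) than in the other classes, and the telo-box and site II core less frequent.

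Carbon metabolism genes did not move as a block. Of 16 starch and plastid transport genes, 5 were called higher, 5 lower and 6 were not called, beside 16.5% higher and 18.9% lower among all tested genes. APL1 and ADG1, subunits of the ADP-glucose pyrophosphorylase that starts starch synthesis in leaves, rose by 1.68 ± 0.23 and 1.33 ± 0.22, GBSS1, the granule-bound starch synthase, by 3.04 ± 0.57 and TPT, the triose phosphate exporter of the chloroplast, by 1.49 ± 0.30. The subunit gene APL3, typical of non-green tissue, and the glucose phosphate importer genes GPT1 and GPT2 fell by 2.16 ± 0.45, 0.85 ± 0.15 and 3.04 ± 1.11. Of 15 sugar transport and sucrose genes, 3 were higher (5 with only the 6 libraries fitted), 5 lower and 7 not called, beside the same shares among all genes. The vacuolar invertase gene VIN2 was at 403, 323 and 383 CPM in light and 103, 159 and 146 CPM in dark (log2 fold change 1.44 ± 0.26, adjusted p = 4.91e-05), the cell wall invertase gene CWINV1 changed by 1.1 ± 0.16, and the sucrose synthase gene SUS1 fell by 1.04 ± 0.28. PMDH2, a peroxisomal malate dehydrogenase, was at 909.6, 817 and 935 CPM in light and 186, 256 and 257 CPM in dark (log2 fold change 1.93 ± 0.24, adjusted p = 2.34e-07), and CYFBP, for the cytosolic fructose bisphosphatase, rose by 1.49 ± 0.14. PCK1, the carboxykinase that turns seed oil carbon into sugar, was at 352, 346 and 396 CPM in light and 896, 1302 and 1255 CPM in dark (log2 fold change -1.66 ± 0.31, adjusted p = 0.000111), with every light library below every dark one, whereas ICL, of the glyoxylate cycle, was not called (-0.44 ± 0.44).

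Of 17 markers known to be induced by prolonged darkness and starvation, 1 was called higher in light, 3 lower and 13 were not called, beside 16.5% and 18.9% higher and lower among all genes. With only the 6 compared libraries fitted, 2 were higher and 5 lower, and without light library 1 only 1 was lower. SEN1 was at 1303, 1156 and 1305 CPM in light and 724, 1152 and 1135 CPM in dark, and the lowest light library lay just above the 2 highest dark ones (log2 fold change 0.32 ± 0.30, adjusted p = 0.433). DIN10, a raffinose synthase-like gene, was at 2735, 1904 and 2443 CPM in light and 1348, 2014 and 1853 CPM in dark (log2 fold change 0.44 ± 0.24, adjusted p = 0.159), with overlapping ranges. BGLU30, the beta-glucosidase gene also named DIN2, was at 203, 181 and 183 CPM in light and 304, 329 and 380.2 CPM in dark, lower in each light library but not called (log2 fold change -0.83 ± 0.52, adjusted p = 0.224). It was called when only the 6 compared libraries were fitted (-0.79, adjusted p = 0.000499). The marker called higher in light was DIN9, a mannose phosphate isomerase gene, at 46.1, 31.3 and 44.6 CPM in light and 13.9, 22.0 and 22.5 CPM in dark (log2 fold change 1.06 ± 0.27, adjusted p = 0.00246). The markers called lower were TPS5 (-1.42 ± 0.27), of the class II trehalose phosphate synthases, EXL2 (-0.85 ± 0.28) and DRM2 (-1.45 ± 0.49). The EXL2 call was lost without dark library 3, light library 1 or light library 2 (-0.74 to -0.84) and that of DRM2 without dark library 1, light library 1 or light library 3 (-1.32 to -1.46).

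Amino acid breakdown gave 3 genes higher, 4 lower and 18 not called of 25 (6 higher when only the 6 libraries were fitted). Among all tested genes 16.5% were called higher and 18.9% lower, the shares to set beside each group count in this paragraph. THA1, the threonine aldolase, was at 899.8, 665 and 876 CPM in light and 249.996, 296 and 262 CPM in dark (log2 fold change 1.6 ± 0.55, adjusted p = 0.0258), but leaving out any 1 library other than light library 2 ended the THA1 call (adjusted p 0.0553 to 0.0779). MGL, the methionine gamma-lyase, was at 289, 229.8 and 318 CPM in light and 612, 543 and 640.0 CPM in dark (log2 fold change -1.10 ± 0.28, adjusted p = 0.00239). The proline dehydrogenase PRODH1 was at 787, 639 and 756 CPM in light and 365, 507 and 469.5 CPM in dark and was not called (log2 fold change 0.70 ± 0.56, adjusted p = 0.353; 0.75, adjusted p = 0.00271 with only the 6 libraries). In fatty acid breakdown, 2 of 13 were higher and 4 lower, all by less than 2-fold (1 and 7 with library totals); SDP1, the lipase that opens oil bodies, rose by 0.77 ± 0.17 and the beta-oxidation thiolase gene KAT2 fell by 0.68 ± 0.21. Autophagy gave 2 higher and 5 lower of 15, among them ATG5, a conjugation factor (1.36 ± 0.16), and the cargo receptor gene NBR1 (-0.54 ± 0.18); 3 were lower without dark library 1, dark library 2 or light library 3. Of 13 senescence and chlorophyll breakdown genes, 5 were higher, WRKY6 the most clearly (1.24 ± 0.23), and none lower. Without light library 1 or dark library 3, 2 were higher. With library totals as the scale 1 was higher and 1 lower. Among SnRK1 subunits and their activating kinases none was higher and 2 of 9 were lower, both activating kinases: GRIK1 (-0.81 ± 0.14) and GRIK2 (-0.40 ± 0.13). Of the bZIP factors linked to SnRK1, BZIP63 was at 208, 189 and 188 CPM in light and 54.9, 58.6 and 56.2 CPM in dark (log2 fold change 1.79 ± 0.16, adjusted p = 2.36e-10), BZIP53 fell by 0.49 ± 0.18 and 7 of 9 were not called. Leaving out 1 library ended the calls of KAT2 (dark library 1, -0.60), NBR1 (dark library 1, -0.49, or light library 2, -0.41), GRIK2 (dark library 2, -0.27, or light library 3, -0.35) and BZIP53 (dark library 1 or 2 or light library 2 or 3, -0.47 to -0.49).

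Flavonoid and anthocyanin genes, which light often induces, were mostly not called at 5 d: 5 of 25 were higher, 1 lower and 19 not called. Among all tested genes 16.5% were higher and 18.9% lower. CHS, the chalcone synthase of the first committed step, was at 82.1, 129.8 and 147 CPM in light and 103, 39.6 and 36.3 CPM in dark (log2 fold change 1.00 ± 0.45, adjusted p = 0.0815), with dark library 1 inside the light range. Without dark library 1 the CHS difference was 1.66 (adjusted p = 0.0106). UGT78D2, a flavonoid glucosyltransferase, was at 64.9, 54.3 and 64.2 CPM in light and 15.3, 7.96 and 8.82 CPM in dark (log2 fold change 2.52 ± 0.34, adjusted p = 1.18e-06). TT8, a helix-loop-helix regulator, had 25 counts in light and none in dark, at least 10-fold higher when the dark group is set at a floor of 3 counts over the group. The late anthocyanin genes DFR and LDOX had at most 1 count in either group, too few to give a fold.

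Cell division genes included more falls than rises. Of 20 cell cycle and DNA replication genes, 10 were called lower, 1 higher and 9 not. The replicative helicase gene MCM5 was at 5.22, 6.37 and 3.88 CPM in light and 13.6, 11.1 and 10.3 CPM in dark (log2 fold change -1.17 ± 0.24, adjusted p = 0.000206). MCM2, of the same helicase, changed by -1.43 ± 0.29, the mitotic cyclin genes CYCB1;2 and CYCB1;4 by -1.22 ± 0.46 and -1.14 ± 0.35, and CYCD3;2, a G1 cyclin gene, was the one higher (0.66 ± 0.13). The CYCB1;2 call was lost without any 1 of the 6 libraries (-1.03 to -1.34) and that of CYCB1;4 without light library 3 (-0.94). Without light library 1, 6 genes of the group were called lower, and with library totals as the scale 15. Of 19 cytosolic ribosomal protein genes, 18 were not called; RPL3B, at 5.77, 5.83 and 5.82 CPM in light and 12.4, 13.1 and 11.9 CPM in dark, was called lower (log2 fold change -1.10 ± 0.31, adjusted p = 0.00548).

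Whole seedlings mix organs whose sizes differ between light and dark, and in bulk RNA fewer cells of a type cannot be told apart from less RNA per cell. All 6 libraries held transcripts of shoot apex, root and stomatal lineage genes. The 14 root markers summed to 142 to 149.7 CPM in light and 194 to 223 CPM in dark. Of these markers 1 was higher, 2 were lower and 11 were not called, beside 16.5% higher and 18.9% lower among all tested genes. The root hair genes COBL9 and EXPA7 were under 3 CPM in every library. CASP1, of the root endodermal barrier, was at 16.8, 20.5 and 20.5 CPM in light and 68.5, 58.3 and 67.6 CPM in dark (log2 fold change -1.75 ± 0.38, adjusted p = 0.000567). The 11 shoot apex genes listed summed to 333 to 393 CPM in light and 609.8 to 685 CPM in dark. Of the 9 tested, 3 were lower: STM, which maintains the meristem (-1.24 ± 0.26), AS1, of leaf initiation (-1.09 ± 0.14), and the epidermal gene PDF1 (-2.36 ± 0.40). Of the wax genes CER1, of alkane synthesis, was at 2.06, 3.79 and 2.54 CPM in light and 33.6, 35.1 and 39.9 CPM in dark (log2 fold change -3.69 ± 0.50, adjusted p = 4.03e-07). Of 7 stomatal lineage genes, 5 were higher and none lower (3 higher with library totals as the scale, without dark library 3 or without light library 3), and the sum was 122 to 158 CPM in light and 85.5 to 91.8 CPM in dark. SPCH, which starts the lineage, was at 7.70, 8.67 and 6.57 CPM in light and 3.79, 1.66 and 1.47 CPM in dark (log2 fold change 1.73 ± 0.34, adjusted p = 0.000131). The part of these cell types in the other results was not tested.

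Hypoxia genes moved with single libraries. Of 10, 6 were called lower in light, none higher and 4 not, and the summed level was 158 to 305 CPM in light and 293 to 664 CPM in dark. ADH1, the alcohol dehydrogenase of fermentation, was at 25.7, 86.4 and 40.9 CPM in light and 210.2, 92.2 and 75.2 CPM in dark (log2 fold change -1.30 ± 0.51, adjusted p = 0.0469), and the haemoglobin gene HB1 at 12.5, 33.3 and 15.7 CPM in light and 86.4, 35.7 and 28.7 CPM in dark (log2 fold change -1.29 ± 0.43, adjusted p = 0.0202). Dark library 1 was highest and light library 2 the highest of the light libraries, and for ADH1 light library 2 lay above dark library 3. Without dark library 1 the ADH1 difference was -0.72 (adjusted p = 0.338) and that of HB1 -0.65 (adjusted p = 0.287); both were also not called without light library 1 (-0.98 and -1.04) or light library 3 (-1.17 and -1.13). The group count of 6 fell to 1 without dark library 1, to 1 without light library 1 and to 2 without light library 3, and to 2 when only the 6 compared libraries were fitted. Over all genes, 6314 were called without light library 2 and dark library 1, an alternative chosen after these values were seen, and 5941 of those were among the 8002 with the same direction.

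The light to dark difference at 5 d was then set against that at 4 d in wild type, which rests on 6 other libraries. At 4 d, 6297 genes (27.9%) were called, 14.4% of all tested genes being called higher. Called at both ages in the same direction were 4045 genes, 50.5% of the 5 d calls and 64.2% of the 4 d calls, and 25 were called in opposite directions. A further 3932 genes were called at 5 d and not at 4 d, yet the difference between the ages was itself called for 196 of these. In all the light effect differed between the ages for 478 genes (2.12%), 262 (1.16%) with a more positive and 216 (0.956%) with a more negative value at 5 d. The count fell to 131 without 4 d light library 2, 133 without 5 d light library 1, 165 without 4 d dark library 3 or without 5 d light library 3, 211 without 5 d dark library 1, 234 without 4 d dark library 1, 239 without 4 d light library 3 and 296 without 5 d dark library 3. It rose to 2057 when only the compared libraries were fitted.

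In the flavonoid group, 18 of 25 genes were called higher in light at 4 d against 5 at 5 d, and the light effect itself was lower at 5 d for 5 of them. For CHS the light mean was 261 ± 10.4 CPM at 4 d and 119.6 ± 33.7 at 5 d (SD, n = 3), and the dark mean 16.7 ± 3.37 and 59.7 ± 37.7. Its light effect was 3.96 ± 0.45 at 4 d on the log2 scale and 1.00 ± 0.45 at 5 d, a difference of -2.96 ± 0.63, adjusted p = 0.0131. CHIL, which assists chalcone isomerase, and FLS1, the flavonol synthase, differed by -3.15 ± 0.61 and -2.93 ± 0.71. The CHS difference was not called without 5 d dark library 1 (-2.31, adjusted p = 0.0682) or 5 d light library 1 (-2.75, adjusted p = 0.0589). Cytosolic ribosomal protein genes had 18 of 19 called higher at 4 d and none at 5 d, and the difference was called for 4, among them RPL23AA (-1.01 ± 0.26, adjusted p = 0.0348). HB1 had an effect of 1.90 ± 0.43 at 4 d and -1.29 ± 0.43 at 5 d, a difference of -3.19 ± 0.61, adjusted p = 0.00578, beside the wide spread of its dark 5 d libraries. In the other direction, the photorespiratory GLYK and GGT1 had a larger light effect at 5 d (1.47 ± 0.26 and 1.43 ± 0.36), as did LHCB2.1 (2.45 ± 0.65) and CYFBP (1.09 ± 0.20). For LHCB2.1 the dark mean was 1142 ± 148 CPM at 4 d and 246 ± 113 at 5 d, whereas the light mean was 2718 ± 131 and 3197 ± 685. Several of these age differences lay close to the threshold: leaving out 1 of the 12 libraries ended the call in 7 of 12 cases for FLS1 (-2.40 to -3.18), 7 for RPL23AA (-0.86 to -1.17), 9 for GGT1 (1.28 to 1.58) and 10 for LHCB2.1 (2.16 to 2.83). It ended none of the calls for CHIL, HB1, GLYK and CYFBP.

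Among genes with a mean log2 CPM of at least 2, those with the largest age differences included KCS12, a ketoacyl-CoA synthase of very long chain fatty acids, at 25.5 ± 10 CPM in light at 4 d and 167 ± 21.0 at 5 d (3.26 ± 0.37, adjusted p = 6.94e-06). The chitinase family gene AT2G43620 (2.80 ± 0.61), WRKY49 (2.81 ± 0.50) and the berberine family gene AT1G30720 (2.73 ± 0.63) also had larger effects at 5 d. PYD4, of pyrimidine breakdown, had an effect of -2.94 ± 0.76 at 4 d and was not called at 5 d (0.47 ± 0.58). AT2G04050, a MATE efflux gene, was at 75.1 ± 19.5 CPM in light at 4 d and 9.27 ± 4.73 at 5 d (-5.23 ± 0.61, adjusted p = 1.07e-05). GMI1, a gene induced by DNA damage, reversed from 2.41 ± 0.42 to -1.31 ± 0.52, the latter not called without any 1 library other than dark library 3 (-1.08 to -1.54). AT1G73120 fell at both ages, more at 5 d (-3.86 ± 0.47). Leaving out 1 of the 12 libraries ended the age call in 11 cases for PYD4 (2.99 to 4.0), in 6 for AT1G30720 (2.58 to 2.87) and for AT2G43620 without 4 d dark library 1 (2.44, adjusted p = 0.0745). It ended none of the calls for KCS12, WRKY49, AT2G04050, GMI1 and AT1G73120.

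**Figure D5:**
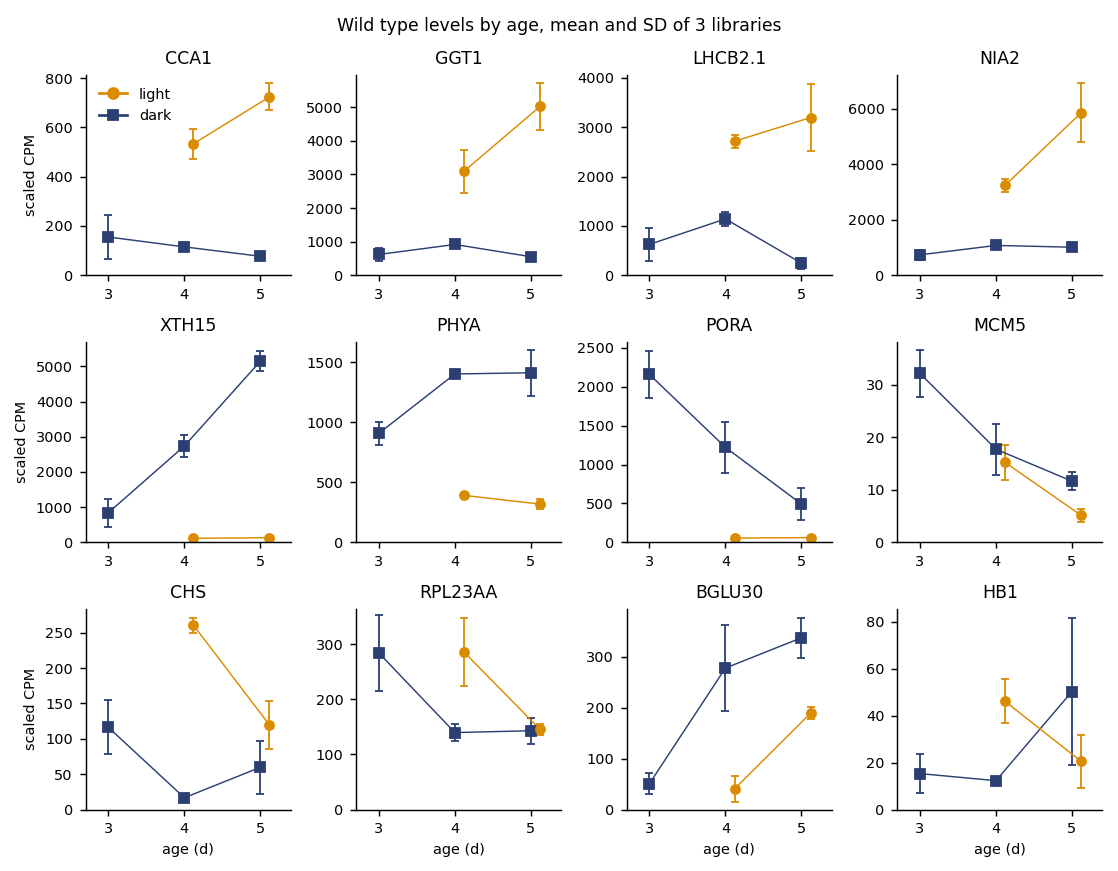
Scaled CPM of 12 genes in wild type seedlings at 3, 4 and 5 d after germination, in light (orange circles) and dark (blue squares); points are means and whiskers the SD of 3 libraries, and 3 d has dark libraries alone. The dark mean of XTH15 was highest at 5 d, at 5144 CPM; the light and dark whiskers of CHS and RPL23AA are apart at 4 d and overlap at 5 d.

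At 5 d in the libraries labelled snrk1a1/a2, 2652 genes (11.7%) were called between light and dark, 6.8% of all tested genes being called higher. The label was not borne out by KIN10 transcript there, which was at 457 ± 246 CPM in light and 132 ± 0.587 in dark (SD, n = 3), against 140.5 ± 44.7 and 171 ± 74.0 in wild type; KIN11 was at 41.5 ± 4.69 and 36.8 ± 2.98 against 51.6 ± 8.28 and 42.8 ± 1.37. The titles of these samples carry the letters kd, which the labels do not spell out, and a transcript level need not show the state of the protein. Of the wild type calls, 846 (10.6%) were also called in the libraries labelled mutant in the same direction, 320 (4.0%) in the opposite direction, and 6836 (85.4%) were not called there. The light effect differed between the genotypes for 6175 genes (27.3%; 16.2% more positive and 11.2% more negative in the libraries labelled mutant), including all of the 320 and 4115 of the 6836. The direction of these differences depends on the scaling: 59.1% were more positive in the libraries labelled mutant with TMM factors, 77.0% with library totals and 47.0% without the 6 dark glucose libraries in the fit. With only the 12 compared libraries fitted, 3421 genes were called.

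The wild type difference in many of the genes described above was smaller or missing in the libraries labelled mutant. BAM3 was at 37.8 ± 26.8 CPM in light and 43.8 ± 12.9 in dark there (-6.19 ± 0.92, adjusted p = 1.93e-05 for the difference between genotypes). XTH15 was at 98.3 ± 65.7 and 133 ± 36.2 (4.84 ± 0.88, adjusted p = 0.000281), and AT5G44440 at 176 ± 120.4 and 98.8 ± 44.8 (6.22 ± 0.77, adjusted p = 2.64e-06). In the elongation group, the light effect was more positive in the libraries labelled mutant for 16 of 25 genes and more negative for 2. In photorespiration it was smaller for 11 of 16 genes and in the Calvin cycle for 12 of 19. The clock split too: the light effect was smaller for CCA1 (-1.68 ± 0.39) and LHY (-1.56 ± 0.41) and less negative for LUX (1.68 ± 0.44) and GRP7 (2.3 ± 0.45). For BAM3, XTH15, AT5G44440 and these clock genes, mutant light library 2 lay furthest in the direction of the wild type light effect. XTH15 was at 127, 23.2 and 145 CPM in light and AT5G44440 at 237, 36.8 and 253. CCA1 was at 123.5, 231 and 102 CPM in light and GRP7 at 418, 144 and 564. This was not so for GBSS1 and AT5G66400, given below. Leaving out mutant light library 2 raised the count of genotype differences from 6175 to 8338. AT5G66400, the dehydrin gene of water stress named RAB18, fell in light in wild type (-2.93 ± 0.80). In the libraries labelled mutant it was at 1.93, 8.64 and 89.5 CPM in light and 1.68, 6.0 and 1.87 CPM in dark. The difference between the genotypes was 6.25 ± 1.17, adjusted p = 0.000353. Without mutant light library 3, far above the other mutant libraries, it was 3.67 (adjusted p = 0.0104). GBSS1 was at 3.6, 7.36 and 7.44 CPM in light and 71.1, 13.6 and 6.06 CPM in dark there (difference -5.33 ± 0.79, adjusted p = 1.68e-05). Without mutant dark library 1, far above the other libraries, the GBSS1 difference was -3.73 (adjusted p = 2.6e-05).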

How the data were processed

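Whole seedling RNA was sequenced, and the authors deposited raw read counts per transcript model in 3 tables. Per the file headers the counts came from featureCounts 1.6.2 on TAIR10 gene models, exons grouped by transcript and reads in overlapping models counted for each (-O), with no strand option seen, so overlapping and antisense genes cannot be told apart. The submitters' processing notes name STAR, DESeq2 and TAIR10. Wild type light and dark libraries stood in separate tables. The adapter and read filtering steps are not given in the sources used here.

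The longest transcript model of each of 32678 genes was used (40745 rows). The 6 repeat columns of 3 d dark samples differed from the same-numbered ones by no more than sampling noise (chi-square per degree of freedom 1.04 to 1.06, against 7.12 to 40.63 for other pairs), and each was summed with its partner, which left 42 libraries in 14 groups of 3. edgeR 4.0.16 in R 4.3.3 was run with TMM factors, filterByExpr, 1 mean per group and the robust quasi-likelihood fit (28 residual degrees of freedom); p-values were adjusted by Benjamini-Hochberg over 22586 tested genes with a threshold of 0.05. The pipeline was tested on simulated counts for 22042 genes: 84.8% of the 66 genes changed 4-fold were called, with 6 false calls.

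The gene groups, and this comparison among those of the study, were chosen with earlier results of these data known. Genes were named as up to 12 rises and 12 falls of greatest size, called, with a mean log2 CPM of at least 2 and ranges that did not overlap, up to 6 each way at 100 CPM or more, members of each group, and up to 6 each way for the age and genotype differences, there without the condition on ranges. Group members include at least the 3 of smallest adjusted p. Low counts carry exact 95% intervals for counting error only, as do shares (Wilson). Promoters were read from TAIR10.1, in which 99.0% of 120114 introns of the files' models begin with GT and end with AG; 2546 genes have the same start and end in both annotations. DESeq2 1.42.0 gave an alternative test.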

Additional observations from a re-analysis of the deposited data

Results flagged for a closer look

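The results in this section are differences between light effects that passed an adjusted p of 0.05 when the difference itself was tested (edgeR's quasi-likelihood test on the contrast of 4 group means, Benjamini-Hochberg adjustment over 22586 genes). Each value is a difference of log2 fold changes, light over dark. No explanation of them was tested.

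Between the ages in wild type, 478 genes had a different light effect. At 5 d the effect was lower than at 4 d for the flavonoid genes CHS (-2.96), CHIL (-3.15) and FLS1 (-2.93), for the ribosomal protein gene RPL23AA (-1.01), the haemoglobin gene HB1 (-3.19), AT2G04050 (-5.23), AT1G73120 (-3.86) and GMI1 (-3.72). It was higher for the photorespiratory genes GLYK (1.47) and GGT1 (1.43), the antenna gene LHCB2.1 (2.45), CYFBP (1.09), KCS12 (3.26), AT2G43620 (2.80), WRKY49 (2.81), AT1G30720 (2.73) and PYD4 (3.41). For CHS and HB1 the dark 5 d libraries were far apart, with dark library 1 highest. Leaving out 1 library ended the age call of CHS, FLS1, RPL23AA, GGT1, LHCB2.1, AT2G43620, AT1G30720 and PYD4 in at least 1 case.

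Between the libraries labelled snrk1a1/a2 and wild type at 5 d, 6175 genes had a different light effect. It was lower in the libraries labelled mutant for BAM3 (-6.19), CCA1 (-1.68), LHY (-1.56) and GBSS1 (-5.33). It was higher there for XTH15 (4.84), AT5G44440 (6.22), LUX (1.68), GRP7 (2.3) and the dehydrin gene AT5G66400 (6.25). Leaving out any 1 library ended none of these 9 calls. The AT5G66400 difference was 3.67 without mutant light library 3, and the GBSS1 difference -3.73 without mutant dark library 1.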

How the results depend on the processing

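The 8002 genes called in wild type at 5 d became 6383 to 7453 when 1 of the 6 libraries was left out. Without both light library 2 and dark library 1, a setting chosen after seeing the data, 6314 were called. The count was 7053 to 9131 under the remaining settings of scaling, filter, test, gene model and libraries, and 4018 with at least a 2-fold difference required. Library totals shifted the median log2 fold change of all genes by -0.20. For the age difference, 478 genes became 965 with DESeq2's Wald test, 298 with no filter on low counts, 2057 with only the compared libraries fitted, and 131 to 630 without 1 library. For the genotype difference, 6175 became 3421 with only the compared libraries and 4442 to 8338 without 1 library, and the median of all genes moved by 0.22 with library totals, -0.13 with only the compared libraries and -0.15 without the 6 dark glucose libraries. Of the listed genes, 265 were called, and 232 to 256 without 1 library; 239 were without light library 2 and dark library 1, a setting chosen after seeing the data. Same-numbered light and dark libraries did not deviate together (correlations of -0.197, -0.102 and 0.0835 in wild type at 5 d). Differently numbered ones ranged from -0.164 to 0.209. These values give no sign that the numbers pair the samples, but with 3 libraries a side they cannot exclude it. With the replicate number as a block, 7821, 296 and 6099 genes were called for the wild type 5 d, age and genotype contrasts and 260 of the listed genes. With the replicate block and only the compared libraries, 7053, 1496 and 2515 were called. The I-box share of the genes called higher was 1.21 times that of all genes and 1.12 times with 250 bases in place of 300. Of 3991 values of the 211 named genes under other settings, 3859 kept their direction and side of the threshold, 99 lost and 33 gained a call, and none reversed. The cause of these shifts was not tested. On simulated counts with the same depth and spread, 58.2% of 67 genes changed 2-fold and 20.9% of 67 changed 1.5-fold were called. Far fewer genes changed in the simulation than the 8002 called in the data, which makes the adjusted threshold stricter there. These shares therefore do not give the share of real changes found here, and a gene not called is not shown to be unchanged.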

Other observations

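Seed storage and oil body genes, which are normally silenced as a seedling takes over from the embryo, were at the bottom of the measured range in wild type at 5 d. Of 15 genes in this group, 12 could be tested, none was higher in light, 2 were lower and 10 were not called. The group does not include PAP85, of the vicilin-like storage protein family, which was higher in light (5.32 ± 0.84 on the log2 scale). Among all tested genes 16.5% were higher and 18.9% lower. Together the 15 genes held 9.07 to 12.1 CPM in light and 21.9 to 32.2 CPM in dark. OLEO3, for an oleosin that coats oil bodies, was at 1.37, 0.813 and 1.64 CPM in light and 19.5, 12.6 and 18.1 CPM in dark (log2 fold change -3.71 ± 0.65, adjusted p = 8.21e-06 in edgeR's quasi-likelihood test), so each light library was far below each dark one. EM1, for a late embryogenesis abundant protein, was at 0.275, 0.271 and 0.299 CPM in light and 3.08, 3.21 and 2.08 CPM in dark (-3.27 ± 1.35, adjusted p = 0.0248); leaving out any 1 library other than dark library 3 ended the EM1 call (adjusted p 0.0525 to 0.074). In the libraries labelled snrk1a1/a2 10 of the same 12 genes were higher in light at 5 d, beside 6.8% of all tested genes. For 9 the light effect was more positive there than in wild type, beside 16.2% of all tested genes. Whether a single library carried the light calls in the libraries labelled mutant was not tested. For PAP85 the level there was 27.9 ± 42.3 CPM in light and 0.700 ± 0.246 CPM in dark (SD, n = 3). The SD in light was above the mean, so the 3 libraries were far apart.

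Mitochondrion-encoded transcripts summed to 1877 to 4072 CPM in light and 3520.1 to 9484 CPM in dark. Of 146 such genes 48 were tested, none was higher in light and 1 was lower, ATMG00260, which had 0 counts in the light libraries and 18 in the dark ones and was at least 5-fold lower in light with a floor of 3 counts over the light group. Dark library 1 held most of these counts, and ATMG00260 was not called without dark library 1 (adjusted p = 0.311) or any light library (0.0994 to 0.107).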
